A study of Mus musculus with 4 samples.

Results

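The T cell receptor beta locus of the mouse, named Trb, was examined in differentiating muscle cells through the rows of its gene segments on GeneChip Mouse Gene 2.1 ST arrays. Segments were taken by symbol, as all rows that the platform's gene table names Trbc, Trbd, Trbj or Trbv with a number, which gave 39 of the 24011 named genes. They comprise 2 constant segments, 14 joining segments and 23 variable segments, and neither diversity segment was among the named rows. The locus was chosen by measured values of these same arrays, the higher values of Trbc2 and Trbj2-3 under the Rspo1-null label, so all differences of Trb segments between the labels are given as a description, without a test.

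Primary myoblasts had been grown from limb muscles of young adult wild-type mice and of mice null for Rspo1, which encodes a secreted activator of Wnt signaling. All mice were on the mixed background C57bl6N/sv129, and all cultures were harvested after 24 h in differentiation medium, which is low in serum. There were 2 arrays for each genotype, from independent cultures, and the values are log2 expression values normalized by the authors. The null mice carried the mutation in all tissues, so effects within muscle cells and effects on the donor animal cannot be told apart. The study's controls in other experiments also held heterozygous animals, whereas the labels of these arrays name wild-type animals.

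In T lymphocytes, recombination joins 1 variable, 1 diversity and 1 joining segment into the exon that encodes the variable part of the receptor beta chain, and splicing links it to a constant segment. The mouse locus holds a long array of variable segments followed by a pair of clusters, each with a diversity segment, a row of joining segments and a constant segment. Trbj1 segments stand before Trbc1, and Trbj2 segments stand before Trbc2. Trbv31 lies beyond Trbc2 in inverted orientation. Unrearranged segments can also be transcribed from promoters within the locus, so a signal from a segment does not by itself show a rearranged receptor gene. Muscle cells are not known to use the receptor.

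Rspo1, the targeted gene, measured 5.71 and 5.84 on the log2 scale in wild-type cells and 5.29 and 5.33 in Rspo1-null cells, above background throughout, and since the sources used here do not place its probes against the deleted part, this checks the labels only in part. Whether labels were exchanged between arrays cannot be told from the files, and all directions given here rest on the labels. The methods purified satellite cells magnetically before culture. All 8 muscle cell markers lay above background in all 4 arrays, with values of 9.87 to 10.34 for Myod1, 9.56 to 11.70 for Myog and 10.15 to 10.97 for Des. Xist reached 10.39 in wild-type 2 and 10.38 in Rspo1-null 1, and the Y-linked gene Eif2s3y reached 8.19 in wild-type 1 and 8.51 in Rspo1-null 2, so each label holds 1 array of either kind. Differences are therefore also given within the pair with Xist and within the pair with Y-linked transcripts. Each such difference rests on 1 array against 1. Myog was higher in both arrays with Y-linked transcripts, and Pax7 was higher in both arrays with Xist. The background level was set at 4.69, the 95th percentile of the mean values of 1091 olfactory receptor genes, genes of the nasal epithelium. Values of different rows come from different probes, and their order is not an order of transcript levels.

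Of the 39 segments, 13 had a value above 4.69 in at least 1 array and 11 in all 4 arrays. The remaining 26 stayed at or below it in every array. By type, both constant segments, 2 of 7 Trbj1 segments, 5 of 7 Trbj2 segments and 4 of 23 variable segments reached above the level at least in 1 array. For comparison, 54.0% of all tested genes and 7.70% of the olfactory receptor genes did so, and 33.3% of the Trb segments. The number of Trb segments above background was 11 in wild-type 1, 12 in wild-type 2, 11 in Rspo1-null 1 and 13 in Rspo1-null 2. The number thus varied by at most 2 between arrays.

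**Figure D1:**
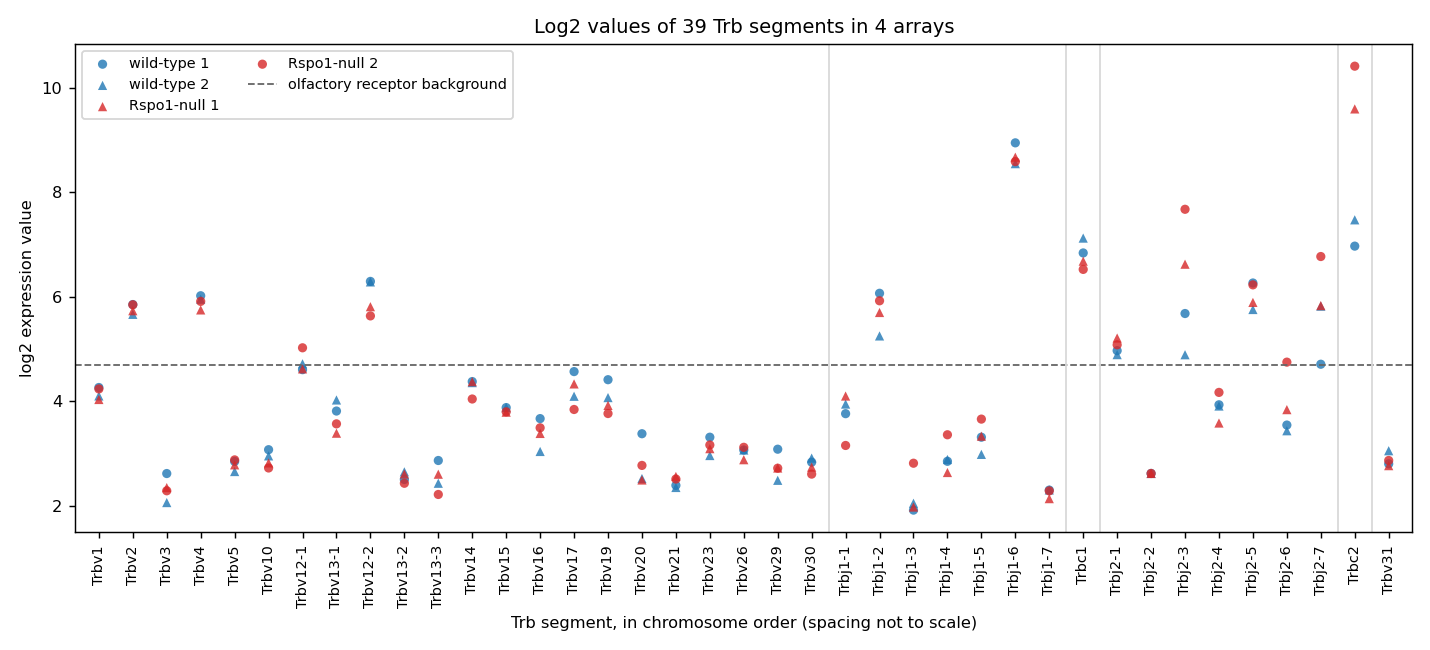
Log2 expression values (vertical axis) of the 39 Trb segments in chromosome order (horizontal axis, spacing not to scale) in the 4 arrays, with wild-type in blue and Rspo1-null in red, triangles for arrays with Xist, circles for arrays with Y-linked transcripts and a dashed line at the background level of 4.69. Trbc2 and Trbj2-3 are the segments in which both red symbols lie clearly above both blue ones, while 26 segments stay at or under the line in every array.

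Trbc2, which encodes the constant region of receptor chains made from the Trbj2 cluster, had log2 values of 6.97 and 7.47 in wild-type cells and 9.60 and 10.42 in Rspo1-null cells. All 4 values were above background, and the labels were parted by 2.12, from the higher wild-type to the lower Rspo1-null array. The difference of the means was 2.78, or 6.89-fold, against gaps of 0.50 and 0.82 between arrays of one label. Among all tested genes this was the difference of rank 2 in the upward direction. Within the pair with Xist the difference was 2.12, and within the pair with Y-linked transcripts it was 3.45. Removal of any 1 array left it between 2.38 and 3.19.

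Trbc1, the constant segment of the other cluster, had log2 values of 6.84 and 7.12 in wild-type cells and 6.68 and 6.52 in Rspo1-null cells. Its mean was thus 0.38 lower in the Rspo1-null arrays, the opposite direction from Trbc2. The coding sequences of Trbc1 and Trbc2 are nearly identical, and the sources used here do not state which probes make up either row, so how far each row also reads the other's transcripts was not tested. The labels overlap in neither row, so their opposite directions within both pairs of arrays were fixed in advance. The sizes are given as a description. The difference was -0.44 for Trbc1 and 2.12 for Trbc2 in the pair with Xist and -0.31 and 3.45 in the other pair.

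The Trbj2 joining segments, which lie directly before Trbc2, were higher in part. Trbj2-3 had log2 values of 5.68 and 4.89 in wild-type cells and 6.62 and 7.68 in Rspo1-null cells, so that both Rspo1-null values lay above both wild-type values. The difference of the means was 1.86, or 3.64-fold, and gaps between arrays of one label reached 0.79 and 1.05. It stood at 1.73 within the pair with Xist and at 2.00 within the pair with Y-linked transcripts, and at 1.34 to 2.39 when 1 array was removed. Over all genes it held rank 7 upward.

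Trbj2-7, the joining segment nearest to Trbc2, had values of 4.71 and 5.82 in wild-type cells and 5.83 and 6.77 in Rspo1-null cells. Its mean difference was 1.04, but the labels were parted by a mere 0.01. It was 2.06 in the pair with Y-linked transcripts and 0.01 in the pair with Xist. Trbj2-6, listed as a pseudogene segment in the RefSeq annotation, had 3.54 and 3.44 in wild-type cells and 3.84 and 4.75 in Rspo1-null cells. Only the array labelled Rspo1-null 2 was above background, and both label means lay below it, so no fold is given for Trbj2-6. Its values still parted the labels, by 0.30.

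The other 4 Trbj2 segments differed by 0.21 at most. Trbj2-1 had 4.97 and 4.89 in wild-type cells and 5.21 and 5.08 in Rspo1-null cells, a difference of 0.21 close above background. Trbj2-5 had 6.26 and 5.76 against 5.89 and 6.23, with overlapping labels and a difference of 0.05. Both were above background in all arrays, so a signal above background was not always accompanied by a difference like that of Trbj2-3. Trbj2-4 had 3.93 and 3.91 in wild-type cells and 3.58 and 4.17 in Rspo1-null cells, all below background. Trbj2-2 was listed at exactly the same value, 2.62, in all 4 arrays, as were 4 other genes of the 24011.

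**Figure D2:**
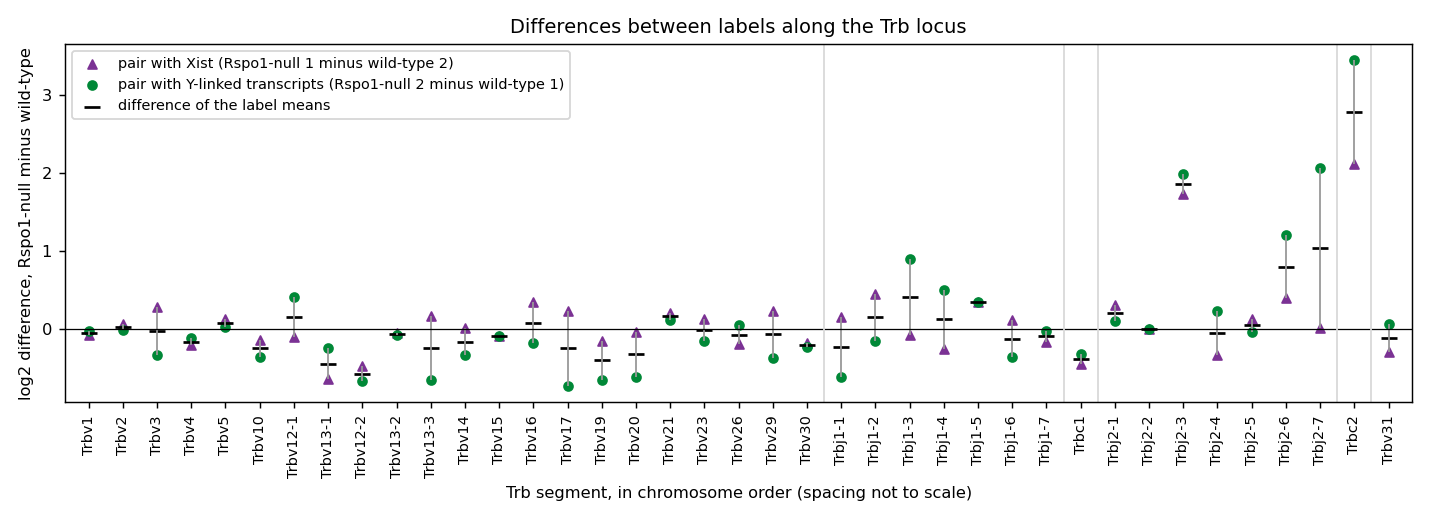
Log2 difference, Rspo1-null minus wild-type (vertical axis), for each Trb segment in chromosome order (horizontal axis, spacing not to scale), as the difference of the label means (black bar) and, joined by a grey line, within the pair of arrays with Xist (triangle) and the pair with Y-linked transcripts (circle). The large differences are those of Trbc2, at 2.12 and 3.45, and Trbj2-3, at 1.73 and 2.00, while Trbj2-7 departs from 0 in 1 pair alone.

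In the Trbj1 cluster the labels overlapped in 5 of 7 segments, and over all genes they did not overlap in 31.2%, so the count is near the background. Trbj1-6 lay above every olfactory receptor gene in each array. Its values were 8.95 and 8.55 in wild-type and 8.67 and 8.59 in Rspo1-null cells, a difference of -0.12. Trbj1-2 had 6.07 and 5.25 against 5.70 and 5.92, a difference of 0.15 that was smaller than the gap of 0.82 between its wild-type arrays. Both segments thus carried a clear signal that did not part the labels. The other 5 Trbj1 segments were at or below background in all arrays. Among these, Trbj1-5 had 3.31 and 2.98 in wild-type and 3.33 and 3.66 in Rspo1-null cells, parted by 0.02.

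The variable segments, from which a rearranged receptor gene takes its antigen-binding part, had a median difference of -0.08 and a range from -0.57 to 0.17, where Trbj2-3 differed by 1.86. Trbv12-2 had the largest decrease, with 6.29 and 6.29 in wild-type cells and 5.81 and 5.63 in Rspo1-null cells. This is a difference of -0.57, with a wild-type level 1.48-fold that of Rspo1-null cells, in a segment above background in all arrays. Trbv4 had 6.02 and 5.95 against 5.75 and 5.91, which is parted by 0.04. Trbv2 had 5.85 and 5.66 against 5.73 and 5.85 and did not part the labels. Trbv12-1 had 4.61 and 4.72 against 4.62 and 5.02, at the level of the background, and overlapped too. In all, 7 of 23 variable segments were lower in both Rspo1-null arrays and 1 was higher. The shares were 19.1% and 12.1% of all genes and 26.5% and 8.43% of the olfactory receptor genes, and nothing is read from these counts. Besides Trbv12-2 and Trbv4, the lower ones were 5 variable segments that were below background throughout. Trbv13-1 had 3.81 and 4.03 against 3.39 and 3.57, and Trbv19 had 4.41 and 4.07 against 3.92 and 3.77. Trbv10, a pseudogene segment, had 3.07 and 2.95 against 2.82 and 2.72, and Trbv30 had 2.83 and 2.91 against 2.74 and 2.61. Trbv15 had 3.88 and 3.88 against 3.79 and 3.80. The differences of these 5 segments lay between -0.44 and -0.08. After cyclic loess and after quantile normalization the labels overlapped in Trbv4, Trbv15 and Trbv30, and in Trbv4 also after median centring. Trbv31, the inverted segment beyond Trbc2, had 2.80 and 3.05 in wild-type and 2.77 and 2.87 in Rspo1-null cells. It is the segment next to Trbc2 on the far side, and its values overlapped between the labels.

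Counted over the locus, 7 of 39 segments were higher in both Rspo1-null arrays than in both wild-type arrays, where this was so for 12.1% of all tested genes. These were Trbc2, Trbj2-3, Trbj2-7, Trbj2-6, Trbj2-1, Trbj1-5 and Trbv21, of which 4 belong to the Trbj2 cluster. Another 9 of 39 were lower in both Rspo1-null arrays, against 19.1% of all genes. Together, groups did not overlap in 31.2% of all genes. The locus was chosen on this contrast, and nothing is read from these counts about the locus as a whole. The counts also shift with the scaling of the arrays, to 8 and 7 after median centring, 9 and 5 after cyclic loess and 8 and 5 after quantile normalization, while the shares of all genes became 17.6% and 13.7%, 15.3% and 14.8%, and 14.2% and 15.8%. Trbc2, Trbj2-3, Trbj2-6, Trbj2-1, Trbj1-5 and Trbv21 were higher without overlap under all 4 scalings, and Trbc1, Trbv12-2, Trbv13-1, Trbv19 and Trbv10 were lower. The share of all genes that did so under all 4 scalings was not computed, and nothing is read from these lists. For Trbj2-7 the labels overlapped after quantile normalization. A log2 difference of at least 1 without overlap was found for 3 segments, Trbc2, Trbj2-3 and Trbj2-7, and for 0.229% of all genes. The median difference over the 39 segments was -0.05, beside -0.03 over all tested genes. Its sign turned positive under all 3 other scalings.

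The differences of Trbc2 and of part of the Trbj2 cluster were set beside segments of the same kind from the other antigen receptor loci, which encode the alpha, delta and gamma chains of T cell receptors and the immunoglobulin chains of B cells. Of 335 such segments, 0 had a log2 difference of 1 or more in either direction, and their range was -0.98 (Ighd6-2) to 0.90 (Traj18). Over all 24011 genes, 84 had a difference of at least 1 and 61 of at most -1, so such differences were rare in general. Of the 335, 270 stayed at or below background in every array, beside 26 of the 39 Trb segments. The count of 0 therefore does not by itself set the Trb locus apart. Their median difference was -0.10, and 33 (9.85%) were higher and 102 (30.4%) lower in both Rspo1-null arrays, beside 12.1% and 19.1% of all genes. Olfactory receptor genes had shares of 8.43% and 26.5%. The balance over all genes turns after median centring, and nothing is read from these shares. By locus, the upper end of the range was 0.90 for the 110 segments of Tra and Trd, 0.43 for 15 of Trg, 0.47 for 102 of Igh and 0.69 for 105 of Igk. All 3 Igl segments were lower on average in Rspo1-null cells. Arrays of one label differed by a median of 0.18 in the Trb segments and 0.19 in the others, close to 0.21 for all genes. Among the 1091 olfactory receptor genes, which set the background, 3 had a difference of at least 1 without overlap, so a difference of this size also occurred in genes of that kind. Trac, the constant segment of the alpha chain that pairs with the beta chain, was below background in all arrays, with 4.19 and 3.80 in wild-type and 3.66 and 3.97 in Rspo1-null cells. The 4 constant segments of the gamma locus were below background as well.

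**Figure D3:**
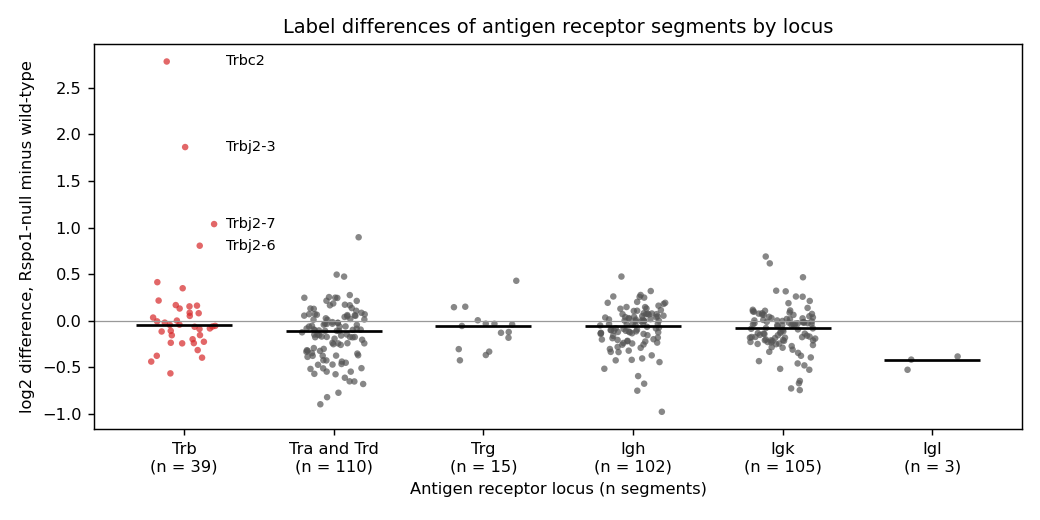
Log2 difference of the label means, Rspo1-null minus wild-type (vertical axis), for each segment of 6 groups of antigen receptor loci (horizontal axis, number of segments in brackets), with Trb in red and a black bar at each median. Trbc2, Trbj2-3 and Trbj2-7 lie at 2.78, 1.86 and 1.04, and no segment of the other loci exceeds 0.90.

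Of 22 T cell markers, 20 were analysed here, and 15 of the 20 were at or below background in all 4 arrays. Cd3e, Cd3d and Cd3g, chains of the CD3 complex without which the receptor does not reach the cell surface, had values from 2.96 to 3.92. Cd247, the zeta chain of the same complex, had 5.02 and 4.60 in wild-type and 4.99 and 4.80 in Rspo1-null cells, above background in 3 arrays. Cd4, Cd8a and Cd8b1, the co-receptors, had values from 2.75 to 4.05, and Zap70, the kinase that the receptor recruits, from 3.86 to 4.12. Ptprc, which encodes the pan-leukocyte protein CD45, had 2.83 and 2.89 in wild-type and 2.77 and 2.59 in Rspo1-null cells. The 5 markers with a value above background were Cd247, Cd6, Lat, Thy1 and Icos, of which Thy1 is also made by fibroblasts. Thy1 and Icos were above it in all 4 arrays, and Icos had 6.03 and 5.58 in wild-type and 5.42 and 5.43 in Rspo1-null cells. None of the 20 was past an unadjusted p of 0.05 in limma (0 genes), beside 3.17% of all tested genes, with 9 means higher and 11 lower in Rspo1-null cells and a median difference of -0.01. The summed signal of the 20 markers, on the linear scale, was 351 to 376 in the wild-type and 346 to 381 in the Rspo1-null arrays, ranges that overlap. Fewer cells of a type and less RNA per cell cannot be told apart in such bulk samples.

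**Figure D4:**
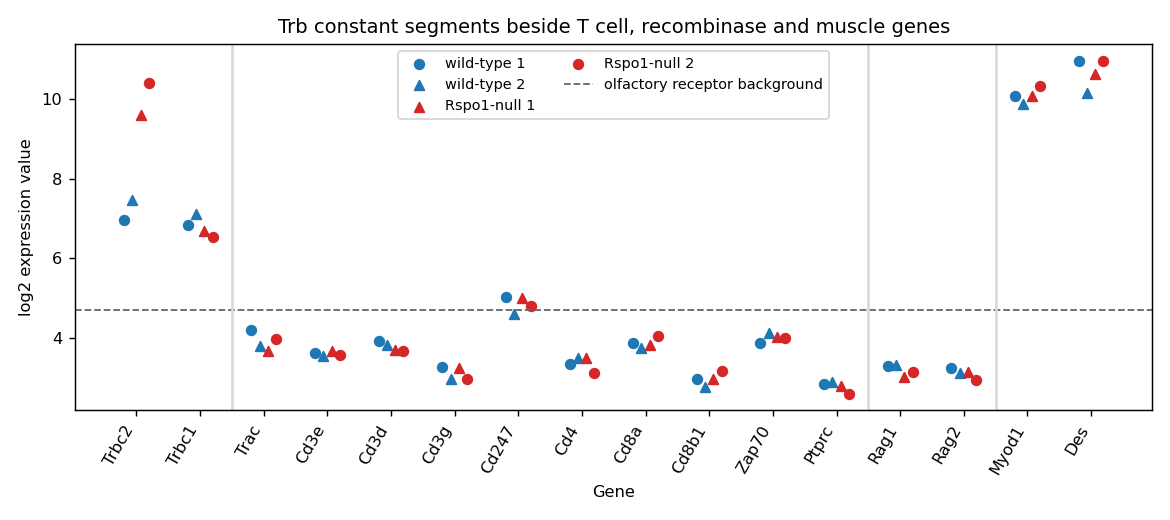
Log2 expression values (vertical axis) of both Trb constant segments, Trac and 9 T cell genes, both recombinase genes and 2 muscle genes (horizontal axis) in the 4 arrays, with the background level of 4.69 dashed. Trbc2 reaches 9.60 and 10.42 in the Rspo1-null arrays, whereas the CD3 chains Cd3e, Cd3d and Cd3g, Cd4, Cd8a, Cd8b1, Zap70, Ptprc, Rag1 and Rag2 stay under the line in all arrays. Cd247 lies above the line in 3 arrays. The T cell markers Cd6, Lat, Thy1 and Icos, which also have values above background, are not drawn.

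Markers of other cell types were mostly at or below background. All 4 measured B cell markers and all 5 endothelial markers were below background in all arrays. Of 5 markers of natural killer and innate lymphoid cells, Klrb1c alone reached above it, and of 5 measured macrophage markers Cd68 and, in 1 array, C1qa. Col1a1 and Col3a1, which muscle cultures can also express, were above background among the 6 fibroblast markers, and Dcn, Lum and Pdgfra were not. A single marker of these cells was past an unadjusted p of 0.05 in limma, beside 3.17% of all tested genes. This was Adgre1, which encodes the macrophage protein F4/80 (adjusted p = 0.999 in limma). It had 3.97 and 3.99 against 3.62 and 3.36, all below background, a difference of -0.49 (standard error 0.16).

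Rag1 and Rag2, whose products cut the segments in recombination, and Dntt, the enzyme that adds bases at the joints, were below background in all 4 arrays. Rag1 had 3.30 and 3.32 in wild-type and 3.01 and 3.14 in Rspo1-null cells, and Rag2 had 3.23 and 3.12 against 3.14 and 2.92. Of 13 measured genes of recombination and end joining, 1 was higher and 1 lower at an unadjusted p of 0.05 in limma, beside 1.2% and 1.97% of all tested genes, and none passed the adjusted threshold. Polm, a DNA polymerase of end joining, had 3.66 and 3.68 in wild-type and 4.20 and 4.55 in Rspo1-null cells (difference 0.71, standard error 0.18, adjusted p = 0.999 in limma). Hmgb2, a DNA-bending cofactor of the recombinase, had 4.21 and 4.01 against 3.72 and 3.67 (difference -0.42, standard error 0.15, adjusted p = 0.999 in limma). Polm and Hmgb2 were below background in all arrays, and Hmgb2 was not past the threshold with the sex-linked pairing as a block.

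Several factors that bind the Trb enhancer and promoters in T cells had a signal in the muscle cells. The list of 15 measured genes also holds Notch1, a membrane receptor, and Ptcra, which encodes the alpha chain of the pre-T cell receptor. Of the 15, 11 were above background in all arrays, as were 10815 of all 24011 genes. Among the 11 was Runx1, with 9.09 and 9.19 in wild-type and 9.11 and 9.66 in Rspo1-null cells. Ptcra was above background in wild-type 1 (4.74) and Rspo1-null 2 (5.10), and below it in wild-type 2 (4.39) and Rspo1-null 1 (4.26). Tcf12 and Tcf3, which encode E proteins that are also partners of MyoD, had values from 8.43 to 8.80 and from 7.38 to 8.26, and Cbfb, the partner of Runx1, from 7.94 to 8.28. Ets1 and Gata3 were above background in all arrays, while Ikzf1, Myb and Runx3 were not in any. Of these 15 genes, 0 were past an unadjusted p of 0.05 in limma, beside 3.17% of all genes, with 8 higher and 7 lower means and a median difference of 0.06. Tcf3 was past it with the sex-linked pairing as a block.

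Trypsinogen genes, which encode digestive proteases and lie among the variable segments, were measured for 9 symbols. Of these, 0 were past the unadjusted limma threshold of 0.05, beside 3.17% of all genes. Means were lower in Rspo1-null cells for 8 of the 9, beside 13232 of 24011 genes and 749 of 1091 olfactory receptor genes. As 6 of the 9 were at or below background in all arrays, nothing is read from this count. Gm10334 and Try4 had a signal in all arrays, with 6.58 and 6.50 against 6.30 and 6.53 for Gm10334 and 5.53 and 5.84 against 5.72 and 5.67 for Try4. Prss2, the last of these genes before the joining clusters, was below background, with a difference of -0.29 (standard error 0.22).

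Of the 20 nearest measured genes outside the locus, 10 on either side, 17 were at or below background in all arrays. On the side of Trbc2 the nearest were Ephb6, a kinase-dead ephrin receptor, and Trpv6, a calcium channel. Ephb6 had 6.07 and 5.57 in wild-type and 6.24 and 5.85 in Rspo1-null cells, and Trpv6 had 5.41 and 5.24 against 5.69 and 5.39, with overlapping labels in both. On the far side, Moxd2 had 3.49 and 3.15 against 3.30 and 3.24, and Mgam had 2.95 and 3.03 against 3.06 and 3.13, all below background. Of these 20 genes, 1 was past an unadjusted p of 0.05 in limma, beside 3.17% of all tested genes. That gene was Tas2r137, a bitter taste receptor, with a difference of -0.45 (adjusted p = 0.999 in limma). It had 3.36 and 3.15 against 2.87 and 2.75, all below background. With the sex-linked pairing as a block, Tas2r137 was no longer past the threshold and Trpv5, a calcium channel gene beside Trpv6, was, with a difference of -0.43. Ssbp1, above background in all arrays and the outermost of the 10 genes on the side of Moxd2, had a difference of -0.15 (standard error 0.15).

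Over all 24011 genes, limma with Benjamini-Hochberg adjustment gave 0 genes past an adjusted p of 0.05, as did the one-way ANOVA named in the methods. Without adjustment, 760 genes, 3.17% of those tested, were past 0.05 in limma and 1139 in the ANOVA. The 760 comprised 288 with higher and 472 with lower values in Rspo1-null cells, which became 435 and 317 after median centring, 346 and 337 after cyclic loess and 303 and 362 after quantile normalization. With 2 arrays for each label, all values given for the locus have a precision limited by the small number of arrays. How many animals each culture came from is not stated. By their sex-linked transcripts, the 2 cultures of a label did not come from the same single animal.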

How the data were processed

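The authors deposited log2 expression values, 1 per Entrez gene and array, from 4 GeneChip Mouse Gene 2.1 ST arrays. RMA and Partek are listed in the submitters' processing notes, and R in the supplementary methods, without versions. RMA summarises all probes of a gene, so single probes could not be examined. Gene symbols came from the gene table of the platform. Of 24973 rows, 24015 had 1 symbol, 0 had several and 958 were not named here. Where a symbol had several rows (4 symbols), that of highest mean was used, which left 24011 genes. Array medians lay between 4.62 and 4.70.

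The comparison of labels used limma (3.58.1, R 4.3.3) with no block, and Benjamini-Hochberg adjustment over all genes, at a threshold of 0.05. The fit was tested on simulated data with the same 4 arrays by label. Of 50 genes given a log2 change of 1, 0 passed the adjusted threshold, and of 50 given a change of 2, 20 did. A count of 0 genes past the adjusted threshold therefore does not show that no gene differed. Segment order came from the RefSeq annotation GRCm38.p6. No source used here names the array's build, so coordinates were left out.

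Genes named are the Trb segments above background in at least 1 array, the constant and Trbj2 segments, up to 6 with the largest rise and fall without overlap, and list members past an unadjusted p of 0.05 or defining a cell type. Trbv31 was added for its position, and Ighd6-2, Traj18 and a few further list members were named after their values were seen. Other segments were taken by symbol, as Tra, Trd and Trg segments and as Igh, Igk and Igl symbols with a number. The members and the lists were chosen with earlier results of these data known. Alternatives were median centring, cyclic loess, quantile normalization, the mean of rows, removal of 1 array, replicate and sex blocks, an intensity trend, the one-way ANOVA of the methods, a filter on low rows and other background levels.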

Additional observations from a re-analysis of the deposited data

How the results depend on the processing

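Under the 3 other scalings the differences were 2.70 to 2.84 for Trbc2 and 1.81 to 1.92 for Trbj2-3. Both segments were chosen for their direction, so nothing is read from the sign there. The labels do not overlap in either segment, so the direction within a pair or with 1 array removed was fixed in advance. The sizes below are given as a description. The blocks, the intensity trend, the ANOVA and the filter on low rows were not used for these differences. The difference of Trbc2 was 2.12 in the Xist pair and 3.45 in the Y-linked pair, and 2.38 to 3.19 with 1 array removed. That of Trbj2-3 was 1.34 to 2.39. The median over the Trb segments was 0.0375 after cyclic loess, 0.0142 after quantile normalization, 0.0115 in the Xist pair and -0.129 to 0.0818 with 1 array removed. Segments lower without overlap numbered 5 after cyclic loess and 5 after quantile normalization. With 1 array removed 11 to 22 were lower without overlap and 8 to 16 higher, since fewer arrays overlap less. The matching shares of all genes with 1 array removed were not computed. Nothing is therefore read from the segment counts with 1 array removed. At the 99th percentile of the olfactory receptor genes, 7 Trb segments were above background, and 19 at the 90th percentile.

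The count of all genes past an unadjusted p of 0.05 in limma was 400 with the replicate block and 246 without low rows, where fewer genes were tested, and 540 to 1711 with 1 array removed (the last without the array labelled wild-type 2). Same-numbered arrays deviated oppositely (correlation -0.36), and with the crossed pairing, which is the sex block, the count was 1284. With that block Tas2r137 and Hmgb2 were no longer past the threshold and Trpv5 and Tcf3 were, which leaves both list counts as they were. The replicate number is shared by arrays of both labels without a stated tie. The T cell marker count was 0 to 2 with 1 array removed, where Lat and Icos passed without wild-type 2, and 0 otherwise. The flanking gene count of 1 became 2 with an intensity trend, 0 with median centring, cyclic loess, quantile normalization, the replicate block, the ANOVA or low rows left out, and 0 to 2 with 1 array removed. The count of recombination and Trb transcription genes, 2, became 1 with the 3 scalings, the replicate block or the ANOVA, 0 without low rows and 0 to 2 with 1 array removed. The count for other cell types, 1, became 4 with the sex block (Adgre1, and the muscle genes Myog, Actn2 and Pax7), 0 with cyclic loess, quantile normalization, the replicate block, the ANOVA or low rows left out, and 0 to 1 with 1 array removed. Tas2r137, Polm, Hmgb2 and Adgre1 lay below background, so the filter on low rows took them out before the fit. They could not be counted there. The cause of the other shifts was not tested where none is named. The count of 0 genes past an adjusted p of 0.05 was the same under all alternatives run.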

Other observations

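The array labelled Rspo1-null 2 had the highest value of all 4 arrays in Trbc2, Trbj2-3, Trbj2-6 and Trbj2-7. Over the 38 segments that varied it was highest in 11, against 18 for wild-type 1, 6 for wild-type 2 and 3 for Rspo1-null 1.

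In the arrays labelled wild-type, Trbc2 already had values of 6.97 and 7.47, and Trbj1-6 had 8.95 and 8.55, while Trac and the chains Cd3e, Cd3d and Cd3g stayed below 4.69. Cd247, a further chain of the complex, had 5.02 and 4.60, above that level in wild-type 1.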
